A study of Mus musculus with 4 samples.

Results

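The cells described here were the Ly6c2- and Ccr2-carrying monocytes that came along in a sort of reporter-positive cells from mouse endosteal bone marrow. They were chosen by the measured UMIs of each cell in 4 single-cell RNA-seq libraries, above all by 4 genes, Ms4a4c, Ly6c2, Ccr2 and F13a1, of which at least 3 had to have a unique molecular identifier (UMI, the tag that marks 1 captured RNA molecule). Cells also needed 200 to 6000 genes and at most 5% mitochondrial UMIs. Excluded were cells with, per 10000 UMIs, 10 or more of C1qa, C1qb and C1qc (macrophage complement genes), 300 or more of S100a8 and S100a9 (neutrophil granule and cytosol genes), 30 or more of Mcpt8 and Prss34 (basophil proteases) or 50 or more of Elane, Mpo, Prtn3 and Ctsg (primary granule genes of granulocyte progenitors). The rule found 773 monocytes among 24084 cells that passed the filter, themselves part of 27907 barcodes. Because these genes chose the cells, their levels in them are a description and not a result. The cells came from male Col2:Td mice (strain label B6SJL/F1), in which Cre recombinase driven by a Col2 transgene removes the stop before tdTomato at the Rosa26 locus, and all 4 groups carried both alleles. Long bones were scraped and flushed of central marrow, the metaphyseal fragments were digested with proteases, and the top 1% of Td+ cells or a visible Td+ peak was sorted. Each age was 1 library of pooled animals, with 2 mice at 1 month and 3 mice each at 1.5, 3 and 16 months, and no treatment was given. Age, library, pool and sort therefore cannot be told apart, there is no replicate, and intervals cover counting error only.

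Classical monocytes are made in the bone marrow from myeloid progenitors, carry high Ly6C on their surface, and depend on the chemokine receptor CCR2 to leave the marrow for blood. In tissue they can become macrophages or dendritic-like cells, and in blood some become Ly6C-low patrolling monocytes, a step known to require NR4A1. In marrow some still divide, and some take on an antigen-presenting, CD209a-positive form. Osteoclasts, the bone-resorbing cells, derive from the same lineage, which is why monocytes near the endosteum are of interest in bone.

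The 4 libraries held 32672631 to 108227184 UMIs. Cells that passed the filter had medians of 6264 to 10279.5 UMIs, and monocytes had 5907 to 13498. The 16 month library stood apart: 3086 of its 9229 barcodes did not pass, 2987 of them over the mitochondrial limit, and its table listed 31054 genes where the others listed 27999. In that library Gm42418, a transcript that overlaps ribosomal RNA, was counted at 12747 CPM (counts per 1e6, the UMIs of a gene summed over cells and scaled to the same total for every class) in monocytes, 12396 in S100a8/S100a9-rich cells and 17819.8 in stromal cells, against 186, 122 and 279 at 1 month. Pairs of libraries shared between 1 and 61 barcodes, and no shared barcode was a monocyte in both libraries.

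Monocytes made up 7.60% of the cells at 1 month (631 of 8308, exact 95% interval 7.03 to 8.19), 2.32% at 3 months (97 of 4180, 1.89 to 2.82) and 0.700% at 16 months (43 of 6143, 0.507 to 0.942). At 1.5 months only 2 of 5453 cells met the rule, which is 0.0367% (0.00444 to 0.132). Values at 1.5 months are therefore left out of what follows. The intervals of the 4 shares did not overlap. The part of the sort in these shares was not tested. S100a8/S100a9-rich cells, those at or past the neutrophil limit, counted 2660, 29, 592 and 350 at 1, 1.5, 3 and 16 months. Stromal cells were those without Ptprc and with at least 100 UMIs per 10000 of Cxcl12, Adipoq, Lepr, Col1a1, Col1a2 and Col3a1. They counted 1399, 3169, 1426 and 4800 in the same order. At 1 month, 1002 cells had 3 or 4 markers, of which the granulocyte progenitor limit removed 172, the S100a8/S100a9 limit 151, the C1q limit 75 and the basophil limit 2, with some cells past several limits. Just inside the limits stood 31 monocytes within a factor of 2 of the progenitor limit, 13 of the S100a8 and S100a9 limit, and 1 of the C1q limit.

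**Figure D1:**
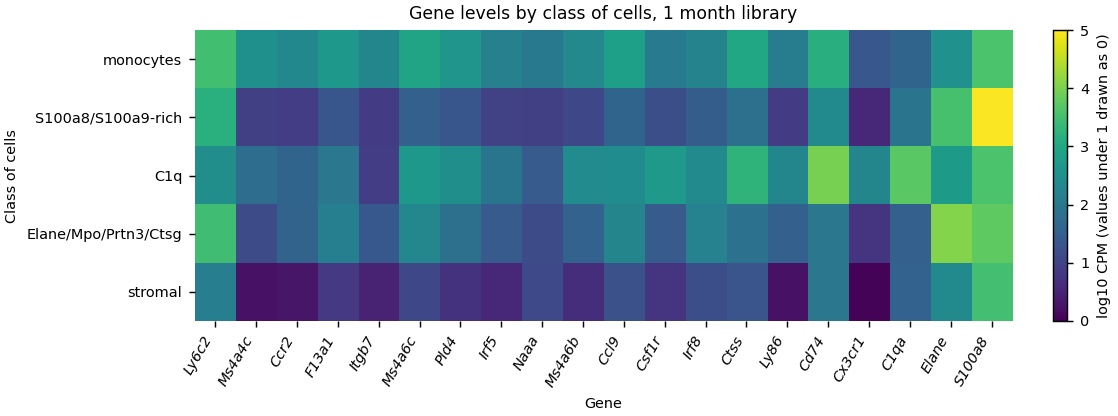
Levels of 20 genes in 5 classes of cells of the 1 month library, drawn as log10 CPM from 0 to 5, with values under 1 CPM drawn as 0. Monocytes occupy the first row, where Ms4a4c reached 329.8 CPM against 8.79 CPM in S100a8/S100a9-rich cells and 1.72 CPM in stromal cells.

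Of the 4 genes of the rule, Ms4a4c, Ccr2 and F13a1 were low in S100a8/S100a9-rich and stromal cells, and Ly6c2 was shared with granulocytes. The granulocyte progenitor class also held the genes, with a UMI of F13a1 in 64.6%, Ccr2 in 37.5% and Ms4a4c in 20.8% of its cells at 1 month, and the C1q class had 30.3%, 19.1% and 22.5%. Ms4a4c, a membrane protein gene of the MS4A family on chromosome 19 (GRCm38, 11404770 to 11427246, plus strand), was counted at 329.8 CPM (95% Poisson interval 315 to 345) at 1 month, 433 (384 to 486) at 3 months and 185 (153 to 222) at 16 months. S100a8/S100a9-rich cells of those libraries held 8.79, 3.77 and 0 CPM. Ccr2, the receptor for CCL2 (chromosome 9, 124101950 to 124113557, plus strand), stood at 218 CPM (206 to 230.5), 317 (275 to 363) and 454 (403 to 511). F13a1, the A chain of coagulation factor XIII (chromosome 13, 36867178 to 37050244, minus strand), stood at 465 CPM (448 to 483), 631 (572 to 695) and 712 (647 to 782). Ly6c2, the Ly6C surface antigen (chromosome 15, 75108158 to 75111970, minus strand), had 3019 CPM (2974 to 3064), 2499 (2379 to 2623) and 1408 (1316 to 1505) in monocytes. Its level in S100a8/S100a9-rich cells was 1510.0 CPM at 1 month and 657 CPM at 16 months, and in cells past the granulocyte progenitor limit 2932 CPM at 1 month. Ly6c1 and Ly6c2, and Ms4a4b and Ms4a4c, are near-identical pairs between which reads can be split, so single values are uncertain. Ly6c1 held 20.2, 18.3 and 0 CPM in the monocytes.

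At 1 month Ms4a4c was seen in 87.3% of monocytes (84.5 to 89.8), 6.84% of S100a8/S100a9-rich cells and 1.79% of stromal cells. For Ccr2 those shares were 86.8%, 7.18% and 2.14%. Ly6c2 was seen in 99.4% of monocytes, 99.7% of S100a8/S100a9-rich cells and 73.5% of stromal cells. A share at or below the stromal one is treated as background here, and whether free RNA gave the stromal share was not tested. Median depth was 7465, 13224.5 and 9410 UMIs in the 3 classes. After every cell was thinned to 3000 UMIs, Ms4a4c remained in 59.4%, 2.14% and 0.643%, and Ly6c2 in 93.8%, 94.9% and 31.7%. These shares were fixed in part by the rule and describe the cells chosen.

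The label monocyte held for most markers that the rule did not use. In the 1 month library, 10 of the 13 listed monocyte genes with at least 100 CPM were 2-fold or more over all other cells that passed the filter, where 14.0% of the 1317 genes at that level were. Ms4a6c, another MS4A family member, had 836 CPM at 1 month, 1072 at 3 months and 759 at 16 months, against 34.8, 13.2 and 2.09 in S100a8/S100a9-rich cells. Ctss, the cathepsin of antigen processing, had 953, 966 and 539 CPM, and 71.7, 59.5 and 30 CPM in the S100a8/S100a9-rich cells. Csf1r, the receptor for the main macrophage growth factor, had 115, 89.9 and 105 CPM. That was 7.3 times the level in S100a8/S100a9-rich cells at 1 month and below the 489.5 CPM of the C1q cells (macrophage-like, past the C1q limit). Lyz2, lysozyme, was counted at 21771, 20816 and 15398 CPM in monocytes, and at 13138, 14130.5 and 10856 CPM in S100a8/S100a9-rich cells, so it separated the classes little. Klf4, Cybb and Fn1 fell short of 2-fold over the other cells, at 1.67-, 1.46- and 1.61-fold, since stromal cells held 680.0 CPM of Klf4 and 556 CPM of Fn1, and S100a8/S100a9-rich cells held 685 CPM of Cybb. Vcan, often used to mark classical monocytes, was close to absent in these cells at 23.6, 3.05 and 27.6 CPM, with 91.6 CPM in stromal cells at 1 month.

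Genes outside the rule with the largest excess over the other cells of the 1 month library were led by Itgb7, the beta-7 integrin chain (chromosome 15, 102215995 to 102231944, minus strand), at 16.7-fold. Its level was 195 CPM (184 to 207) at 1 month, 276 (237 to 319) at 3 months and 321 (278 to 369) at 16 months. S100a8/S100a9-rich cells held 7.87, 2.51 and 3.92 CPM and C1q cells 7.98 CPM at 1 month, so Itgb7 was low in both neighbouring myeloid classes in each library where it was compared. Ms4a6c followed at 12.2-fold. Pld4, an endolysosomal nuclease (chromosome 12, 112760655 to 112768990, plus strand), stood at 10.2-fold, with 399, 460.4 and 324 CPM. Wfdc17 and the interferon-inducible Ifi27l2a both stood at 10.1-fold, Irf5 at 9.70-fold, Naaa at 9.54-fold, Ms4a6b at 9.11-fold and Pid1 at 9.04-fold. Among the chemokines, Ccl9 (668, 665 and 308 CPM) and Ccl6 (639, 591 and 420.1 CPM) stood at 8.09- and 7.45-fold. The MS4A family as a whole had 4 of its 12 measured genes at 100 CPM or more. Each of those 4, Ms4a4c of the rule included, was at least 2-fold over the other cells, beside 14.0% of all genes. The family summed to 1638 CPM in monocytes and 2094 CPM in C1q cells at 1 month, so its level was not particular to monocytes.

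**Figure D2:**
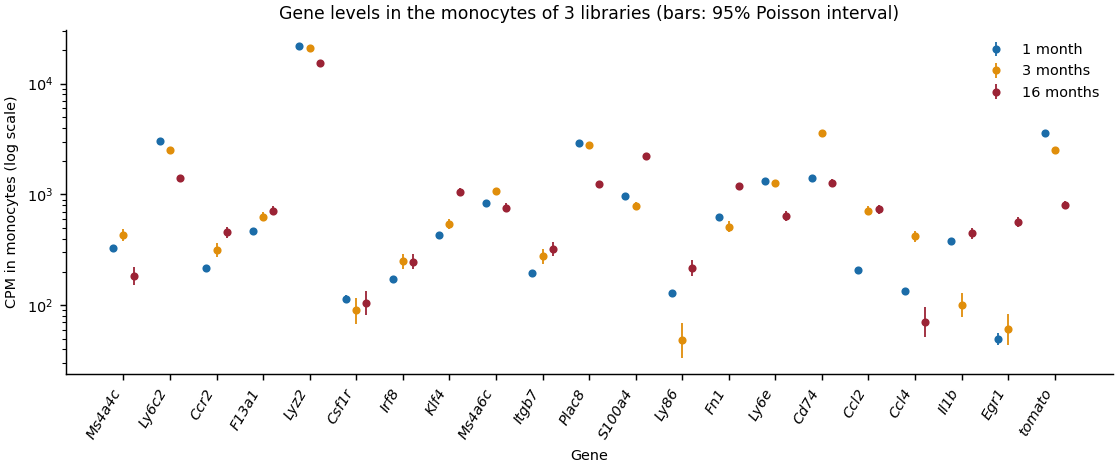
CPM (log scale) of selected genes and the reporter in the monocytes of the 1, 3 and 16 month libraries, with bars for the 95% Poisson interval of the summed UMIs. The libraries lie close together for Lyz2 (21771, 20816 and 15398 CPM) and apart for Ms4a4c, Ly6c2 and Ccr2.

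The transcription factors of the lineage were present in all 3 libraries. Irf8, which directs progenitors to the monocyte and dendritic cell fates (chromosome 8, 120736358 to 120756694, plus strand), had 174 CPM (164 to 185), 252 (215 to 293) and 248 (210.4 to 291), against 29.8, 7.96 and 12.3 in S100a8/S100a9-rich cells. Spi1, which encodes PU.1, had 300.4, 351 and 321 CPM, and the S100a8/S100a9-rich cells had 463, 309.9 and 330.5, so PU.1 RNA did not separate the classes. Cebpb stood at 1099, 1861 and 1479 CPM and Irf5 at 150.4, 143 and 136 CPM. Of 24 listed factors, 9 had 100 CPM at 1 month. Of those, 5 were 2-fold or more over the other cells, beside the 14.0% of all genes given above. The factors summed to 3296 CPM in monocytes and 3690 CPM in C1q cells at 1 month. Genes tied to the Ly6C-low patrolling form were scarce: Cx3cr1, the fractalkine receptor, had 22.4, 25.9 and 87.6 CPM, Cd36 had 8.37, 1.52 and 0 CPM, and none of the 2 genes of that list with 100 CPM was 2-fold over the other cells.

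Surface receptors gave the monocytes a further set of shared features. Cd14, the lipopolysaccharide co-receptor, had 1139, 968 and 717 CPM against 478, 568 and 832 in S100a8/S100a9-rich cells, so its excess over those cells was seen at 1 and 3 months and not at 16 months. Tlr2 had 138, 114 and 123 CPM. Selplg, the P-selectin ligand, had 229, 349 and 339 CPM and Emb 464, 488 and 480.1 CPM, and both were 3 times or more the level in S100a8/S100a9-rich cells in each of the 3 libraries. Csf2ra, the alpha chain of the GM-CSF receptor, had 169, 265 and 274 CPM. Of the pattern recognition genes at 100 CPM or more at 1 month, 4 of 5 were 2-fold over the other cells, beside 14.0% of the 1317 genes at that level. For adhesion genes the count was 5 of 7, for lysosomal genes 8 of 15 and for coagulation and complement genes 5 of 8, F13a1 of the rule included. For the NADPH oxidase, whose subunits neutrophils also carry, it was 0 of 5. At 1 month the pattern recognition list summed to 2165 CPM in monocytes and 2011 CPM in C1q cells. For adhesion genes these sums were 2157 and 1191 CPM, for lysosomal genes 29039 and 23638 CPM, and for coagulation and complement genes 2726 and 1689 CPM. Among coagulation genes, F10, coagulation factor X, had 185, 145 and 170.3 CPM, and at 1 month 56.5 CPM in S100a8/S100a9-rich cells and 4.24 CPM in stromal cells.

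Markers of neighbouring and unrelated cells were checked over whole lists. The 14 macrophage genes summed to 226, 239 and 354 CPM in the monocytes (135 CPM at 16 months without the monocytes that also carried genes of another cell type), against 14833 CPM in C1q cells at 1 month. The 15 neutrophil genes summed to 13786, 3441 and 1126 CPM in monocytes and to 11475, 1733 and 246 CPM in stromal cells, so the monocytes were close to stromal cells at 1 month and above them at 3 and 16 months. S100a8/S100a9-rich cells held 322511 CPM at 1 month. Erythroid genes summed to 9094 CPM at 1 month, and to 3429 CPM without those same monocytes, with 8700 CPM in stromal cells. Granulocyte progenitor genes summed to 1258, 1363 and 962 CPM against 34251 CPM in cells past that limit at 1 month. The neutrophil list holds S100a8 and S100a9 and the progenitor list Elane, genes that the rule limited. The C1q, S100a8/S100a9-rich and progenitor classes are themselves the cells past those limits. The differences from these classes were therefore fixed in part by the rule and describe the cells chosen. RNA of the reporter gene tomato stood at 3577 CPM in monocytes at 1 month, 2539.7 at 3 months and 803 at 16 months. S100a8/S100a9-rich cells held 2770.2, 2657 and 667 CPM, and stromal cells held 3371, 3681 and 4474 CPM. After thinning, tomato was seen in 99.4% of monocytes and 99.4% of S100a8/S100a9-rich cells at 1 month. Without the monocytes that also carried genes of another cell type, the 16 month value was 148 CPM. Such cells were not left out of the S100a8/S100a9-rich class, where they made up 12% at 16 months, so its value is not a like comparison. Reporter RNA was lowest at 16 months in monocytes and in S100a8/S100a9-rich cells. Whether a monocyte made the RNA itself was not tested.

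Because 3 of 4 markers sufficed, the cells were also described by how many markers they held. Within the exclusion limits of the 1 month library, 573 cells had 2 markers, 218 had 3 and 413 had 4, with median depths of 11428, 7430.5 and 7465 UMIs. Cells with 2 markers, just outside the rule, carried 36 CPM of Itgb7, 95 of Ms4a6c, 53 of Pld4 and 2108 of Lyz2. Cells with 3 markers carried 155, 642, 311 and 17556 CPM of the same genes, and cells with 4 carried 218, 945, 449 and 24159 CPM. Most of the step in these genes therefore lay between 2 and 3 markers. Class II genes ran another way: Cd74 was 815, 2007 and 1083 CPM and H2-Ab1 272, 639 and 304 CPM over 2, 3 and 4 markers, highest with 3. Acp5, the tartrate-resistant phosphatase of osteoclasts, was 309, 396 and 37 CPM, and Spp1, osteopontin, 5630, 2979 and 1192 CPM.

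Some monocytes also carried the genes of another cell type. At 1 month, 93 of 631 monocytes (14.7%, 12.1 to 17.7) were past a limit for B-lineage, cartilage and bone, stromal, T and NK, erythroid or osteoclast genes, and 13.1% of S100a8/S100a9-rich cells were past the same limits. The monocytes were 34 for B-lineage genes (20 per 10000 UMIs), 29 for cartilage and bone genes (50), 41 for stromal genes (100), 8 for erythroid genes (200), 7 for T and NK genes (20) and 3 for the osteoclast genes Acp5 and Ctsk (20), with cells past several limits counted for each. At 3 months it was 3 of 97 (3.09%) and at 16 months 7 of 43 (16.3%, 6.81 to 30.7), in both cases all past the stromal limit. These limits were set after the values were seen.

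At 1 month these cells held much of the RNA of several genes of the other types. Of the UMIs of Gzma, a cytotoxic granzyme, 97.2% lay in the 7 cells past the T and NK limit. Col2a1, the cartilage collagen, lay to 88.9% and Bglap, the bone protein osteocalcin, to 91.0% in the 29 cells past the cartilage and bone limit. Acp5 lay to 76.2% in 3 cells, where it reached 9739 CPM against 40.2 CPM in the others. The share was lower for Hbb-bs (63.8%), Ebf1 (66.5%), Nkg7 (48.3%) and Lepr (37.5%), and at 3 months the cells past a limit held only 5.37% of Bglap, 4.27% of Col1a1 and 7.69% of Col3a1. At 16 months Cxcl12, the marrow stromal chemokine, lay to 94.3% in the 7 cells past the stromal limit. Monocytes past a limit held more RNA, with medians of 12944 against 6775.5 UMIs at 1 month, 8170 against 5770 at 3 months and 24884 against 9993 at 16 months, and fewer of them had all 4 markers (37.6% against 70.3% at 1 month). Simulated-doublet scores from Scrublet placed 39 of the 93 among the highest 8% of their library at 1 month, 3 of 3 at 3 months and 7 of 7 at 16 months, against 8 of 538, 1 of 94 and 0 of 36 of the other monocytes. Whether these are droplets with 2 cells was not tested, and no doublets were removed from the main values.

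**Figure D3:**
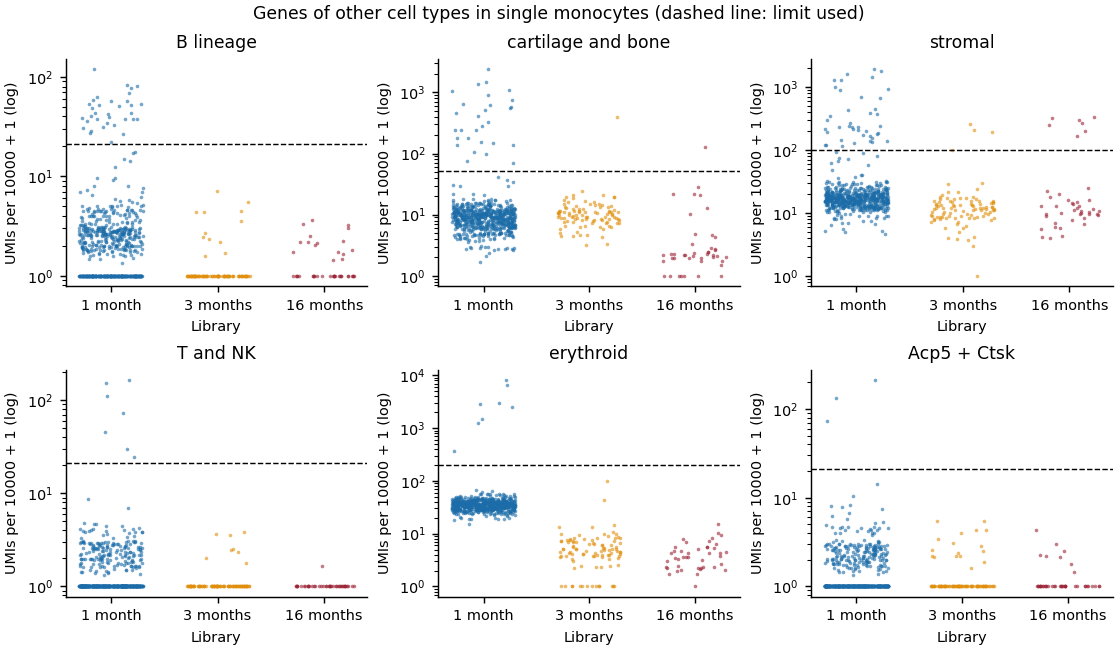
UMIs per 10000 plus 1 (log scale) of B-lineage, cartilage and bone, stromal, T and NK, erythroid and osteoclast genes in single monocytes, by library, with the limit of each set as a dashed line. Most monocytes lie far under the limits, and at 1 month 93 of 631 lie past at least 1 of them.

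The remaining monocytes, 538 at 1 month, 94 at 3 months and 36 at 16 months, were described by 4 gene sums that differed between cells. The sums are ranges and not cell types, and their limits, too, were set after the values were seen. Cells past the limit for S and G2/M phase genes (70 per 10000) were the most frequent at 1 month, followed by those with Il1b and Cxcl2, class II genes and interferon-stimulated genes. At 1 month 288 of 538 (53.5%) were past none of the 4 limits, at 3 months 17 of 94 (18.1%) and at 16 months 16 of 36 (44.4%). At 1 month few cells were past more than 1 limit, the most frequent overlap being class II with Il1b and Cxcl2, in 7 cells. At 16 months 5 cells were past the class II limit and 4 past that of Il1b and Cxcl2. Of the former, 2 were also past the cycle limit and 2 past that of Il1b and Cxcl2. Cycle overlapped with Il1b and Cxcl2 in 2 cells, so these small ranges were not separate there.

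Monocytes past the cycle limit were 174 of 538 at 1 month (32.3%, 28.4 to 36.5), 51 of 94 at 3 months (54.3%, 43.7 to 64.6) and 16 of 36 at 16 months (44.4%, 27.9 to 61.9). Stromal cells had 3.65%, 0.771% and 0.958% past the same limit and S100a8/S100a9-rich cells 47.1%, 39.7% and 20.6%. Near the limit at 1 month stood 55 cells within a factor of 2 below it and 109 within a factor of 2 above it. The cycling range had larger libraries, with medians of 11495 against 6055 UMIs at 1 month, 8053 against 3726 at 3 months and 16332 against 8466.5 at 16 months. In those cells Stmn1, a tubulin-binding protein of dividing cells, had 1424 CPM against 216 in the other monocytes, and Tuba1b 1639 against 290.2. The 15 genes with the largest excess at 1 month, leaving out the list itself, were also higher at 3 and 16 months in 15 of 15 cases each, where 60.4% and 57.9% of all candidate genes were. Monocyte genes differed in direction between them: Irf8 was 265 CPM in the cycling range and 124 in the others at 1 month, 295 and 182 at 3 months, and 407 and 127 at 16 months. Lyz2 was 17715 and 32375 CPM at 1 month, 15904 and 34511 at 3 months, and 13225 and 26928 at 16 months. Csf1r went the way of Lyz2, with 78.3 and 163 CPM, 71.5 and 138, and 103 and 187. In each of the 3 libraries, then, cells rich in cycle genes had more Irf8 and less Lyz2 and Csf1r in CPM. Wfdc17 (203 against 1067 CPM), Clec4a3 (28.2 against 163) and Cxcl2 (111 against 842) were among the 15 lowest at 1 month, of which 15 were lower at 3 months and 14 at 16 months, beside 50.6% and 51.6% of all candidates. The exception was Cxcl2 at 16 months, with 1237 against 1031 CPM.

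Class II antigen presentation genes marked a smaller range. H2-Aa, H2-Ab1, H2-Eb1 and Cd74, the chains of the class II molecule and its chaperone, reached 100 per 10000 UMIs in 29 of 538 monocytes at 1 month (5.39%, 3.64 to 7.65), 18 of 94 at 3 months (19.1%, 11.8 to 28.6) and 5 of 36 at 16 months (13.9%, 4.67 to 29.5). In S100a8/S100a9-rich cells the shares were 0.827%, 1.18% and 0.286%, a background that few cells past the limit reach. The median monocyte held 2.21, 2.56 and 0.977 per 10000. At 1 month 15 cells stood within a factor of 2 below the limit and 5 within a factor of 2 above it. Monocytes past the limit carried genes of the CD209a-positive form at 1 month: Cd209a (chromosome 8, 3743397 to 3748984, minus strand), a lectin of dendritic cells, had 724 CPM against 14.5, Mgl2 246 against 2.81, Cd209d 123 against 2.81 and Clec10a 281 against 20.4. Cd209a was also higher past the limit at 3 months (64.0 against 14.1 CPM, from 4 and 8 UMIs) and at 16 months (393 against 63.0 CPM, from 18 and 26 UMIs). Mgl2, Cd209d and Clec10a did not show this in every library: Mgl2 and Cd209d had at most 1 UMI past the limit at 3 and at 16 months, and Clec10a had 43.7 against 48.5 CPM at 16 months. The 15 genes with the largest excess at 1 month also held Apoe (5959 against 814 CPM) and Ms4a7 (217 against 13.8 CPM). Apoe was higher past the limit at 3 months (3537 against 224 CPM) and 16 months (633 against 293 CPM) as well. The list was thus not limited to genes of the CD209a-positive form. Of the rule's genes, Ly6c2 was lower in this range in each library, with 1349 against 3759 CPM at 1 month, 1504 against 2691 at 3 months and 589 against 1721 at 16 months. F13a1 was 172 against 551 CPM at 1 month, while Ccr2 was close at 256 against 253. The neutrophil and monocyte lectin Chil3 was at 404 against 1409 CPM. Of the 15 genes with the largest excess at 1 month, 13 were higher at 3 months and 7 at 16 months, beside 46.2% and 45.9% of all candidates, so the 16 month share, from 5 cells, was near the background. Cells past the limit had all 4 markers less often, in 41.4% against 71.9% at 1 month and 22.2% against 60.5% at 3 months, but in 80% against 74.2% at 16 months.

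**Figure D4:**
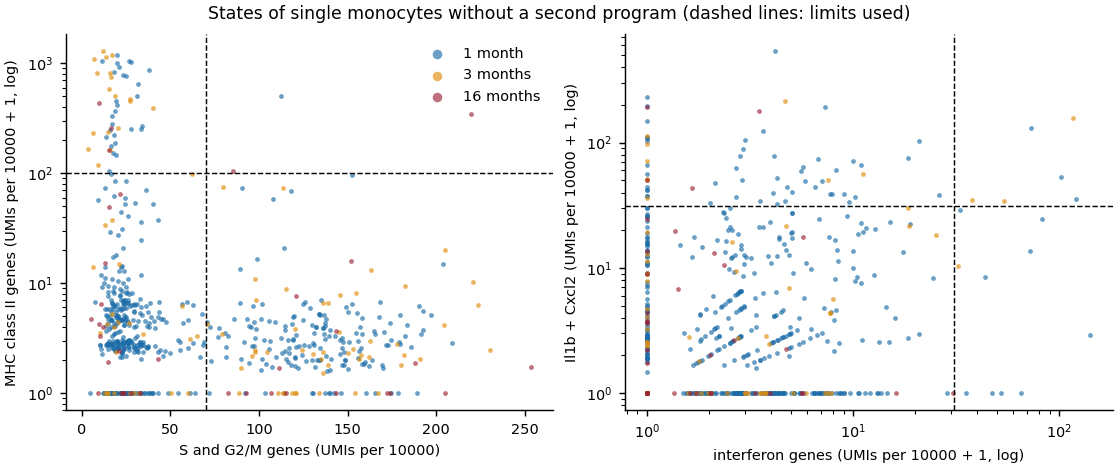
Single monocytes without a second program, coloured by library. The panels plot sums of UMIs per 10000 for the 4 gene sets, on a linear scale for cycle genes and on log scales for the others. Dashed lines mark the limits, past which lie 174, 51 and 16 cells for cycle genes and 29, 18 and 5 for class II genes at 1, 3 and 16 months.

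Interferon-stimulated genes past 30 per 10000 (11 genes, among them Isg15, Ifit1 and Rsad2) marked 12 of 538 monocytes at 1 month (2.23%), 4 of 94 at 3 months (4.26%) and 0 of 36 at 16 months, where a count of 0 allows a share of up to 8.33% taken as 3 counts of 36, and up to 9.74% by the exact interval. S100a8/S100a9-rich cells had 0.188%, 0% and 0.286% past the limit. Cxcl10, an interferon-induced chemokine that was not in the sum, had 624 CPM in these cells against 14.1 at 1 month and 2905 against 3.25 at 3 months. Ms4a4c, a gene of the rule, was 1897 against 364 CPM at 1 month and 2041 against 409 at 3 months, and Plac8 was 9424 against 3268 and 8008 against 2731. Plac8 was therefore higher in the few interferon-rich monocytes at 1 and at 3 months. Ms4a4c helped to choose the cells, so its level in them is a description. At 3 months 0% of the 4 cells had all 4 markers, against 55.6% of the others, and F13a1 had 0 UMIs in them. Of the 15 genes with the largest excess at 1 month, 12 were also higher at 3 months, beside 44.5% of candidates.

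Il1b, the pyrogenic cytokine, and Cxcl2, a chemokine that draws neutrophils, reached 30 per 10000 in 53 of 538 monocytes at 1 month (9.85%), 12 of 94 at 3 months (12.8%) and 4 of 36 at 16 months (11.1%). S100a8/S100a9-rich cells had 1.28%, 7.43% and 29.1%, so at 16 months the sum was not higher in monocytes. At 1 month these monocytes had 165 CPM of Cxcl1 against 7.33, 173 of the receptor antagonist gene Il1rn against 20.5, 2374 of the NF-kappa-B inhibitor gene Nfkbia against 604, 173 of the inflammasome sensor Nlrp3 against 40.6 and 4304 of Cd74 against 1368. The 15 genes with the largest excess were higher at 3 months in 13 cases and at 16 months in 8, beside 51.7% and 39.2% of all candidates.

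The comparison of libraries asked how monocytes of different ages differed. Each comparison set 1 library against 1 other and the 3 comparisons share libraries, so folds describe these libraries only. Genes with a mean of at least 100 CPM over the pair were compared, and 2-fold was the limit. At 3 months against 1 month the monocytes had more RNA of Cd74 and H2-Ab1, 2 of the 6 class II genes compared, and of the chemokines Ccl2, Ccl3 and Ccl4, and less Il1b, while the 12 identity markers compared stayed within 2-fold. Ly86, below the expression minimum of this pair, had 129 CPM at 1 month and 48.8 (33.4 to 68.9) at 3 months. Of 1319 genes, 37 (2.81%) were 2-fold higher and 44 (3.34%) 2-fold lower at 3 months, 6.14% in all. In S100a8/S100a9-rich cells of these libraries 2.60% of genes were higher and 1.97% lower, and in stromal cells 4.91% and 4.23%. Cd74 had 1417 CPM at 1 month and 3618 at 3 months, a log2 ratio of 1.35, and 0.30 in S100a8/S100a9-rich cells. H2-Ab1 had 425 and 895 CPM, a log2 ratio of 1.07, with 0.23 in S100a8/S100a9-rich cells. Of 6 class II genes compared, those 2 passed 2-fold, and H2-Aa and H2-Eb1 stood at log2 0.98 and 0.86. The share of monocytes past the class II limit was higher at 3 months as well (above). Among cells with all 4 markers the ratio was 0.45 for Cd74 and -0.01 for H2-Ab1, and without the cells past a second program it was 1.22 for Cd74 and 0.94 for H2-Ab1, so H2-Ab1 did not stay past 2-fold under either.

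The chemokine genes gave the other group. Ccl2 stood at 209, 713 and 738 CPM at 1, 3 and 16 months, with log2 1.77 at 3 months and 2.66 in S100a8/S100a9-rich cells. Ccl4 had 134 CPM at 1 month and 418 at 3 months (log2 1.64, and 1.06 in S100a8/S100a9-rich cells) and Ccl3 159.8 and 375 (1.23 and 1.35). With all 4 markers required the log2 ratio of Ccl4 was 0.82 and that of Ccl3 0.62, both under 2-fold. Without the cells past a second program Ccl2 stood at 1.42 and Ccl3 at 1.01. These 3 were the members of 9 compared inflammatory genes that were 2-fold higher, beside the 2.81% of all genes, and S100a8/S100a9-rich cells of the same libraries differed in the same direction. Il1b was the 1 that was lower, with 383 CPM at 1 month and 101 at 3 months, 3.81-fold, where S100a8/S100a9-rich cells differed by a log2 of -0.28. Ccrl2, an atypical chemokine receptor, had 56.9 and 177 CPM (log2 1.64). Klf2, a factor of quiescence, stood at log2 1.20, with 0.89 in S100a8/S100a9-rich cells.

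Of the 37 higher genes at 3 months, 20 were also 2-fold higher in S100a8/S100a9-rich cells and 14 in stromal cells of the same libraries, and 16 in neither, Cd74, H2-Ab1, Bin2, Klf2 and the mitotic gene Nusap1 among them. The C1q cells were not part of that count. Their class II genes summed to 18908 CPM at 1 month and 40530 at 3 months, beside 2862 and 6313 CPM in monocytes, so the class II difference was not particular to monocytes. The highest included Gm8797, Rps27rt, Gm2000 and Gm10036, copies of ribosomal protein genes whose reads can be split with their parents, and they are uncertain. The lowest were the hemoglobin genes, Hbb-bs with 4789 CPM at 1 month and 206 at 3 months (log2 -4.54), where S100a8/S100a9-rich cells stood at -1.98. Col1a1 (2278 and 178 CPM) and Bglap (2714 and 227 CPM) were low as well, and without the cells past a second program their log2 ratios moved from -3.67 to -1.25 and from -3.58 to -0.27. Of the 44 lower genes, 23 were lower in neither of the other classes, among them genes of cartilage, bone or matrix such as Acan, Col2a1, Sparc and Dcn. Acan lay to 90.2% in the 29 cells past the cartilage and bone limit at 1 month.

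At 16 months against 1 month, monocytes had more S100a4 and Klf4 and less Plac8 and Ifi27l2a. Plac8 and Ifi27l2a were also 2-fold lower in S100a8/S100a9-rich cells, stromal cells or both, and Klf4 was higher in S100a8/S100a9-rich cells, though under 2-fold. A large set of immediate early and heat shock genes was higher too, and the other cells of the library shared it. Of 1337 genes, 123 (9.20%) were 2-fold higher and 71 (5.31%) lower, 14.5% in all. S100a8/S100a9-rich cells had 10.7% and 9.46% of 1004 genes past 2-fold in the same comparison, and stromal cells 21.4% and 19.3% of 1432. Ccr2 and Ly6c2, as genes of the rule, are given as a description. Ccr2 had 218 CPM at 1 month and 454 at 16 months, 2.08-fold (1.82 to 2.37), while in S100a8/S100a9-rich cells its log2 ratio was -2.64 from 8.14 and 1.31 CPM. S100a4, a calcium-binding protein of motile cells, had 970.1 and 2224 CPM, 2.29-fold (2.16 to 2.43), with a log2 ratio of -2.70 in S100a8/S100a9-rich cells. Klf4, a factor of monocyte differentiation, had 431 and 1051 CPM, a log2 ratio of 1.29, and 0.97 in S100a8/S100a9-rich cells. The ratios of Ccr2, S100a4 and Klf4 stood at 1.02, 1.24 and 1.40 without the cells past a second program. With all 4 markers required the log2 ratio of Ccr2 was 0.90, and with mitochondrial UMIs allowed up to 10% it was 0.91, both just under 2-fold.

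Other regulators were higher at 16 months too. Of 11 transcription factors compared, 5 passed 2-fold and all 5 were higher, among them Klf4, Nr4a1, Runx1 and Egr1, beside 9.20% of all genes. Nr4a1, needed for patrolling monocytes, had 108 and 282 CPM (log2 1.39), and was also 2-fold higher in S100a8/S100a9-rich cells, stromal cells or both. Over the 11 factors the median log2 ratio was 0.92 in monocytes and 0.97 in S100a8/S100a9-rich cells, so the difference was not particular to monocytes. Egr1 had 49.7 and 568 CPM (log2 3.51), and its log2 ratio in S100a8/S100a9-rich cells was 3.62. Runx1 stood at log2 1.67 in all monocytes and 0.10 without the cells past a second program. Of the 18 immediate early genes compared, 12 were 2-fold higher, with a median log2 ratio of 1.35 in monocytes and 1.84 in S100a8/S100a9-rich cells, so this list moved in both classes. Cxcr4, the receptor that holds cells in marrow, had 37.6 CPM at 1 month, 116 at 3 months and 272 at 16 months (log2 2.86 at 16 months), with 23.9, 55.5 and 120.1 CPM in S100a8/S100a9-rich cells. Handling of the tissue and age cannot be told apart here.

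Lower at 16 months were several genes that are high in Ly6C-high monocytes. Ly6c2 was 2.14-fold lower (3019 and 1408 CPM, log2 -1.10), and S100a8/S100a9-rich cells differed alike at -1.20. Plac8 had 2903 and 1242 CPM (log2 -1.22, and -1.60 in S100a8/S100a9-rich cells). Ifi27l2a had 1049 and 373 CPM (log2 -1.49) and Ly6e 1327 and 636 CPM (log2 -1.06), the 2 lower genes of 7 interferon-stimulated genes compared. Ccl9 had 668 and 308 CPM (log2 -1.12, and -2.75 in S100a8/S100a9-rich cells). B2m, the light chain of class I molecules, stood at log2 -1.15, with -0.84 in S100a8/S100a9-rich cells. The reporter tomato was 4.46-fold lower (log2 -2.16), with -2.05 in S100a8/S100a9-rich cells. In monocytes without a second program, which held 148 CPM at 16 months, the log2 ratio was -4.64. The S100a8/S100a9-rich cells were not reduced in that way. Lyz2, Irf8, Csf1r, F13a1 and the class II genes stayed within 2-fold.

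Of the 123 higher genes, 99 were also 2-fold higher in S100a8/S100a9-rich cells, 91 in stromal cells and 83 in both. Those that passed in neither were 16, among them Camkk2, Ccr2, Cox17, Fam46a, Klf4, Mmp13, Mt2, Nsa2, Rpl15, Rps21, Rps28, S100a4, Snrpg, Spp1 and Taf1d. Of these, Spp1 (log2 1.38), Mmp13 (1.53) and Mt2 (1.61) turned to -0.81, -0.85 and -1.41 without the cells past a second program. Of the 71 lower genes, 46 were lower in S100a8/S100a9-rich cells, 58 in stromal cells and 39 in both. The highest ratios belonged to Lars2 (4.44 and 551 CPM), Gm42418 and the heat shock gene Hspa1b (5.30 and 307 CPM), each of which was also higher in the S100a8/S100a9-rich cells, by log2 7.53, 6.66 and 5.29. Igfbp5, Ctgf, Adamts1, Vcam1 and Serping1, genes of stromal cells, stood at log2 4.97, 4.92, 4.50, 4.09 and 4.01, and at 2.01, 1.91, -0.52, 0.40 and 0.16 without the 7 cells past the stromal limit. At the other end, Atp5o had 417 CPM at 1 month and 0 UMIs in monocytes, S100a8/S100a9-rich cells and stromal cells alike at 16 months, at least 85.7-fold lower against a floor of 3 UMIs in the 16 month monocytes. Ltf was at least 62.7-fold lower, and Retnlg, Camp, Ngp and S100a9, which are neutrophil genes, followed. The 16 month table listed a different set of genes, and the part of that difference in Atp5o was not tested.

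**Figure D5:**
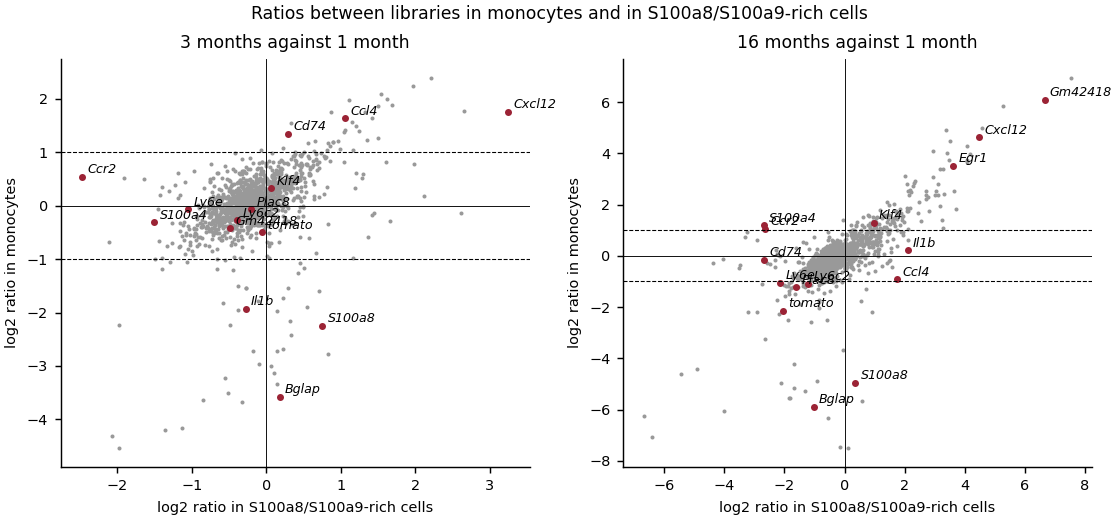
Log2 ratio of each gene in monocytes (y) against S100a8/S100a9-rich cells (x), for 3 months against 1 month and for 16 months against 1 month, over genes with a mean of 100 CPM. Dashed lines mark 2-fold. Genes such as Egr1 and Lars2 were high in both classes at 16 months, while Ccr2 and S100a4 were past 2-fold higher in monocytes and not in S100a8/S100a9-rich cells.

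At 16 months against 3 months the median log2 ratio over the 1355 genes compared was -0.20, so ratios are given relative to it. Of these genes, 121 (8.93%) were 2-fold higher and 87 (6.42%) lower before that shift, 15.4% in all, which is 58.2% higher among those past 2-fold. In S100a8/S100a9-rich cells 12.4% of genes were higher and 7.51% lower, and in stromal cells 17.8% and 11.5%. Under median-ratio scaling of the monocytes 161 were higher and 53 lower, which is 75.2%. Higher at 16 months were Ly86, the MD-1 co-receptor (48.8 and 217 CPM, relative log2 2.35), Il1b (101 and 444 CPM, 2.34), S100a4 (1.70), Fn1 (514 and 1182 CPM, 1.40) and Klf4 (1.16). Lower were Ccl4 (-2.35), Cd74 (-1.30), H2-Ab1 (-1.16) and Ms4a4c (-1.03), a gene of the rule given as a description, with Plac8 at -0.96. Before the shift, 82 of the 121 higher genes were also 2-fold higher in S100a8/S100a9-rich cells and 79 in stromal cells. Of the 87 lower genes, 59 and 56 were lower there. Past 2-fold in neither class were 25 higher genes, Ly86, Fn1 and S100a4 among them, and 16 lower ones. Il1b, Ccl4, Cd74, H2-Ab1 and Ms4a4c passed it the same way in at least 1 of those classes. Of 12 identity markers compared, 3 (Cybb, Fn1 and Ly86) were 2-fold higher and 1 (Plac8) lower before the shift. Summed, the class II genes held 2862 CPM at 1 month, 6313 at 3 months and 2673 at 16 months in monocytes, and 492, 565 and 91 CPM in S100a8/S100a9-rich cells. The C1q cells were also highest at 3 months, with 18908 CPM at 1 month, 40530 at 3 months and 26228 at 16 months. Without the cells past a second program the log2 ratios of Cd74 and H2-Ab1, before the shift, were -1.20 and -1.05 in place of -1.50 and -1.35. With all 4 markers required, the log2 ratio at 16 against 3 months was -0.051 for Cd74 and 0.27 for H2-Ab1, so that order of libraries holds for the rule with 3 markers and not for cells with 4.

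Shares of cells at equal depth were compared last, with each cell thinned to 3000 UMIs, which left out 7 shallower monocytes at 3 months. At least 5 UMIs of the 43 S phase and 54 G2/M phase genes of the study's methods, of which 42 and 52 were measured, were found in 87.0% of monocytes at 1 month (84.1 to 89.5), 86.7% at 3 months (77.9 to 92.9) and 79.1% at 16 months (64.0 to 90.0). The intervals overlapped, and stromal cells had 60.3%, 26.8% and 33.3%. S100a8/S100a9-rich cells had 89.3%, 75.1% and 76.5%, and C1q cells 76.3%, 39.4% and 48.7%. Cells past the granulocyte progenitor limit had 99.7%, 100% and 100%. Without thinning the monocyte shares were 99.7%, 89.7% and 97.7%. Summed over monocytes, the G2/M list stood at 5060, 7773 and 6668 CPM and the S list at 1916, 2218 and 2036 CPM, and 1 G2/M gene, Nusap1, of 18 compared passed 2-fold at 3 months against 1 month, where the list's median log2 ratio was 0.67 and that of all genes 0.07. At least 3 class II UMIs were found in 18.1% of monocytes at 1 month (15.1 to 21.3), 28.9% at 3 months (19.8 to 39.4) and 25.6% at 16 months (13.5 to 41.2). S100a8/S100a9-rich cells had 6.17%, 3.71% and 0.327%, so the monocytes stood above the background in each library. The C1q cells, which present antigen, had 76.1%, 90.7% and 92.3%. Without thinning, 46.4%, 43.3% and 34.9% of monocytes had 3 class II UMIs, an order that the thinned shares did not keep.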

How the data were processed

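Single-cell RNA-seq (10x Genomics) gave 1 library per age from sorted Td+ endosteal marrow cells. The deposited tables hold counts of UMIs per gene and cell, not normalised. The authors made them with Cell Ranger 3.0.2 on mm10 with the reporter gene added, and the submitters' processing notes also name Seurat 2. The annotation release is not given in the sources used here. The 26600 genes listed in all 4 tables were compared.

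The study's own filter was used, which asks for 200 to 6000 genes and allows 5% of UMIs from mitochondrial genes. This left 4180 and 6143 cells at 3 and 16 months, fewer than the study's own numbers, so its filter on those tables may have differed. Monocytes were found by the marker rule stated in the report, and UMIs were summed per library and class and scaled to CPM, with 95% Poisson intervals. Shares have exact Clopper-Pearson 95% intervals. With 1 library per age there was no test, no p-value and no SD, and both kinds of interval cover counting error only. Monocytes of at least 30 cells per library were compared in 3 pairs, over genes with a mean of at least 100 CPM, and 2-fold was the limit. For shares, cells were thinned to 3000 UMIs. No doublets were removed, beyond the limit on genes. Depth in monocytes was 2498 to 45096 UMIs per cell.

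The members, lists and limits were chosen with earlier results of these data known. Named were the rule's genes, members of 44 lists, the 15 genes with the highest level and the 15 with the largest excess over other cells at 1 month, the 10 highest and 10 lowest ratios of each pair, and, for each gene sum within the monocytes, the 15 genes most and least in excess. Of 546 listed genes, 12 were not analysed here, and a few results are not reported here. The genes shown by marker number, and the limits on gene sums within monocytes, were picked after values were seen, as were genes named from the overlap with other classes. Alternatives were all 4 markers, a mitochondrial limit of 10%, at least 1000 genes, stricter limits on other types, removal of the highest 8% of Scrublet scores, other scalings, expression minimums of 50 and 200 CPM, other UMI minimums and no thinning. Leaving out cells with a second program and a minimum of 10 cycle UMIs were added after seeing the data. The fold and thinning steps were tested on simulated data. Positions are from GENCODE M21 (GRCm38). Python 3.11.15, numpy 2.4.6, scipy 1.17.1, pandas 2.3.3, scanpy 1.11.5, scikit-learn 1.9.0 and matplotlib 3.10.9 were used.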

Additional observations from a re-analysis of the deposited data

How the results depend on the processing

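No paired analysis was possible because each age was 1 library of pooled mice. The share of monocytes at 1 month, 7.60%, was 4.97% with all 4 markers, 4.73% with stricter limits on other cell types, 6.48% without cells holding a second program and 4.97% with markers counted after thinning. At 3 months, 2.32% became 1.22%, 1.63% and 1.71% under the first, second and last of these, and at 16 months 0.700% became 0.488% with all 4 markers. The order of the 4 libraries was the same each time. Cells with 5 cycle UMIs at 1 month, 87.0%, were 83.5% with stricter limits, 90.1% without a second program, 97.0% at 3 UMIs, 49.1% at 10 UMIs, 99.7% without thinning and 67.2% thinned to 2000. At 3 months, 86.7% became 93.3% at 3 UMIs, 64.4% at 10 UMIs and 75.3% thinned to 2000, and at 16 months 79.1% became 51.2% at 10 UMIs, 97.7% without thinning and 53.5% thinned to 2000. Class II shares at 1 month, 18.1%, were 55.3% at 1 UMI, 46.4% without thinning and 14.4% thinned to 2000, and 28.9% at 3 months became 57.8% and 43.3% under the first and second of these. A lower minimum of 50 CPM gave 146, 378 and 434 genes past 2-fold at 3 against 1, 16 against 1 and 16 against 3 months, and a minimum of 200 CPM gave 51, 99 and 108, in place of 81, 194 and 208, since fewer or more genes were compared. Without cells holding a second program the counts were 63, 133 and 153.

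Of the ratios past 2-fold that were recomputed, 104 of 124 stayed past it with all 4 markers, 138 of 144 at 10% mitochondrial UMIs, 137 of 144 with stricter limits, 105 of 120 without the highest Scrublet scores, 102 of 118 without a second program and 135 of 146 under median-ratio scaling. The direction turned for Bglap2 at 3 against 1 month (0.0154 without a second program), H2-Ab1 (-0.0138 at 3 against 1 month and 0.27 at 16 against 3 months with all 4 markers) and Bglap at 16 against 1 month (0.54 at 10% mitochondrial UMIs), and the cause was not tested. With 43 monocytes at 16 months and 97 at 3 months, genes under about 100 CPM rest on few UMIs, and no spread between animals can be given at any age.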
